A study of Homo sapiens with 12 samples.

Results

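The RNA levels of 6 genes that place methyl groups on DNA were followed, out of 30225 genes in the deposited table. They were taken by symbol. DNMT1, UHRF1, HELLS and CDCA7 make up the maintenance group of 4 genes, and DNMT3A and DNMT3B the de novo group of 2. The libraries came from PC9, an EGFR-mutant line derived from non-small cell lung cancer. The study sequenced RNA from PC9 in which AGR2, an endoplasmic reticulum protein related to the disulfide isomerases, was lowered or raised. Cells of all 12 libraries had received 300 nM gefitinib, which blocks the kinase activity of EGFR. There were 3 libraries in each of 4 groups, namely controls at 24 h of gefitinib (the labels say no more of them), cells with an AGR2 short hairpin (shAGR2) at 24 h, controls at 72 h, and cells overexpressing AGR2 (oeAGR2) at 72 h. The labels name 1 cell line, no clone and no vector, and do not say whether replicates were separate cultures, so each p below measures only the spread between these libraries. Cells without gefitinib were not analysed here. DNA methylation itself was not measured, only RNA.

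Methylation of cytosine in CpG has to be copied after each round of DNA synthesis, because the new strand starts without it. UHRF1 binds the half-methylated sites behind the replication fork and brings in DNMT1, the maintenance methyltransferase, while HELLS, a nucleosome remodeller of the SNF2 family, and its partner CDCA7, a zinc finger protein, open chromatin for it. DNMT3A and DNMT3B set methylation at sites that had none, a step not tied to replication in the same way, and germline genes are a known class that stays silent in body cells under promoter methylation. Loss of CDCA7 or HELLS function is a known cause of the ICF syndrome, in which repeats near centromeres lose methylation, as is loss of DNMT3B.

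The stretches before the RefSeq start sites (build GRCh38.p14) are shown because windows of the 4 maintenance genes, all higher in the knockdown, shared letters that the windows of the de novo genes lacked. DNMT3B, whose window lacks them, was also higher there, so the letters in these windows do not divide the genes as the RNA did. The DNMT3B window, like those of DNMT1, UHRF1 and HELLS and some of those of DNMT3A, lies inside the span of its gene in the deposited table. For DNMT3B that span begins at chr20:32762385, and the bases before that position were not searched. All 6 genes matched a RefSeq promoter window of 300 bases, 250 before and 50 after a start, and the 6 genes had 13 such windows. The motif searched on both strands is the E2F motif spelled TTTCCCGC, TTTCGCGC, TTTGCCGC or TTTGGCGC, and matches are in capitals, as the reverse complement where the match lies on the other strand. Each is written 5′ to 3′ on the strand of its gene: DNMT1 from chr19:10194948-10195103 (minus strand, running into the first transcribed bases), UHRF1 from chr19:4909351-4909500 and chr19:4909973-4910002 (plus strand), HELLS from chr10:94545638-94545787 (plus strand), CDCA7 from chr2:173354722-173354871 (plus strand), DNMT3A from chr2:25342484-25342633 (minus strand) and DNMT3B from chr20:32779702-32779851 (plus strand).
DNMT1: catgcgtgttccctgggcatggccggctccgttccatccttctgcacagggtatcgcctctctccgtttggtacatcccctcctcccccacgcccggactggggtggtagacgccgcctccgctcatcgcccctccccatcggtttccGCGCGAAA
UHRF1 start 1: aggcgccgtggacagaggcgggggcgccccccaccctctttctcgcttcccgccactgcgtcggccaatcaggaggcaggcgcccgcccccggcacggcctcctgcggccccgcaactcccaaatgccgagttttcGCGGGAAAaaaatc
UHRF1 start 2: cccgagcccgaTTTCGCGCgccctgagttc
HELLS: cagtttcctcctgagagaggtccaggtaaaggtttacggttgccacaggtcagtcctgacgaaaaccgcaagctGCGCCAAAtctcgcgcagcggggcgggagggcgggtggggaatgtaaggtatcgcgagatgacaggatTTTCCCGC
CDCA7: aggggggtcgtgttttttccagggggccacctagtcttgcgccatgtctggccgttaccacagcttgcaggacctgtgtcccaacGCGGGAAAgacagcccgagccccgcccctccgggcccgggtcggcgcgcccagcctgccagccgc
DNMT3A start 1: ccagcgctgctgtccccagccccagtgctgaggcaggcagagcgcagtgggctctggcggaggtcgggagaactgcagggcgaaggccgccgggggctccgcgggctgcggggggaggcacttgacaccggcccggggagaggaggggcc
DNMT3B: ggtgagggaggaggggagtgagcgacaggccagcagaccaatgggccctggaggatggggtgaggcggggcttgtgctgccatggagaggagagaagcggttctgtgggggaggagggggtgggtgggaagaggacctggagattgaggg

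The E2F letters were present in the windows of 4 of 4 maintenance genes and of 0 of 2 de novo genes, with the DNMT3B window lying inside its gene. They occurred in 3.99% of 27305 genes with a window and in 6.54% of 9108 genes that had a window and passed the filter on low values described below. Counting the first transcribed base as 0, the match lay at -2 to 5 in DNMT1, -14 to -7 and -160 to -153 before 2 of the 3 UHRF1 starts, -76 to -69 and -8 to -1 in HELLS, and -65 to -58 in CDCA7. The CCAAT letters, found in 39.7% of genes with a window, were present in UHRF1, HELLS and DNMT3B. The GC letters GGGCGG, found in 48.3%, were present in UHRF1, HELLS, CDCA7 and DNMT3A. No E2F match shared bases with a CCAAT or GGGCGG match in these windows. Among 21 genes of DNA replication with a window, 13 (61.9%) held the E2F letters. A match is a description of letters, and binding was not measured.

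**Figure D1:**
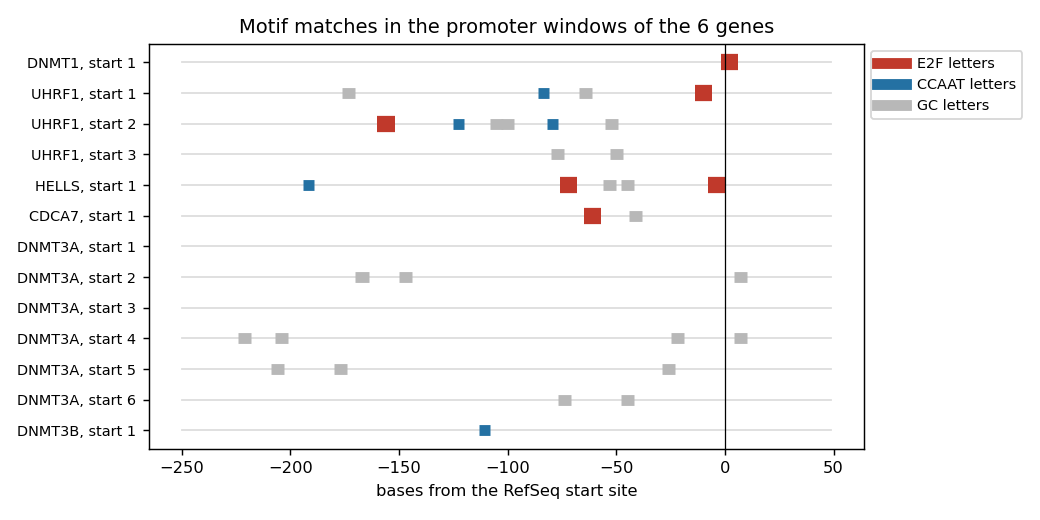
Positions of the E2F, CCAAT and GGGCGG letters (coloured blocks) in the 13 RefSeq windows of the 6 genes; the x axis is distance in bases from the start site. E2F letters lie in the windows of DNMT1, UHRF1, HELLS and CDCA7 and in none of the 7 windows of DNMT3A and DNMT3B.

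Values are TPM, an RNA abundance per transcript length scaled to a total of 1000000 in each library. Read numbers cannot be recovered from them, so sequencing depth is unknown, and 12130 to 14589 genes lay at 1 TPM or more in a library. AGR2 itself was 31.95 ± 0.868 TPM (SD, n = 3) in the controls at 24 h and 0.673 ± 0.0893 in the knockdown, 47.5-fold lower, and 8.11 ± 0.481 in the controls at 72 h against 11.2 ± 0.808 with overexpression, 1.38-fold higher. Of the epithelial and lung markers, EPCAM lay between 30.4 and 50.2 TPM and KRT18 between 1465 and 4333 TPM in the 12 libraries, while SFTPB, a surfactant protein gene, did not exceed 0.0322 TPM and NAPSA did not exceed 0.98 TPM. Of 6 tested epithelial and lung markers, 3 fell and 1 rose in the knockdown, beside 11.9% and 53.6% of all tested genes. With libraries rescaled to the median gene 5 fell and 0 rose, beside 29.9% and 29.4%. With overexpression 1 fell and 4 rose, beside 25.5% and 29.9%. EPCAM went from 39.95 ± 0.924 to 47.3 ± 2.77 TPM in the knockdown, a change of 0.24 that became -0.26 once libraries were rescaled, and from 39.5 ± 2.16 to 32.6 ± 3.87 TPM with overexpression. The keratin KRT18 was 3684 ± 432 TPM in the controls at 24 h and 1501 ± 49.9 in the knockdown, and NKX2-1, a lung lineage factor, was 1.31 ± 0.308 TPM in the controls at 72 h and 6.53 ± 1.04 with overexpression. Of 7 markers of other cell types, 5 had a row in the table. Their summed level was 53.1 to 65.6 TPM in the controls at 24 h, 130 to 156 TPM in the knockdown, 117 to 118 TPM in the controls at 72 h and 65.4 to 76.4 TPM with overexpression. That sum was mostly CD68, a lysosomal membrane protein, at 49.5 to 151 TPM, and COL1A1, at 3.54 to 8.56 TPM. The defining markers PTPRC (leukocytes), PECAM1 and VWF (endothelium) stayed at or below 0.0213, 0.402 and 0.0352 TPM. CD68 thus moved in the same directions as DNMT1, UHRF1 and CDCA7 below, and any part of it in those results was not tested. Mitochondrially encoded transcripts took 42.6 to 46.5% of TPM in the controls at 24 h and 36.2 to 37.1% in the knockdown, and 41.1 to 42.8% and 37.3 to 47.4% in the controls and overexpressing cells at 72 h.

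With AGR2 knocked down, RNA of the 4 maintenance genes was between 3.31-fold (DNMT1) and 13.7-fold (CDCA7) higher than in the controls at 24 h, while RNA of DNMT3A was 0.965 of the control level. DNMT1 stood at 1.81, 2.18 and 2.41 TPM in the controls and at 7.23, 6.41 and 7.53 TPM in the knockdown. UHRF1, the reader that brings DNMT1 to half-methylated sites, stood at 0.878, 0.846 and 0.959 TPM and at 4.45, 4.41 and 4.88 TPM, 5.12-fold higher. Every knockdown library was above every control library for both genes, as for 57.3% of tested genes. HELLS, the remodeller, stood at 0.313, 0.479 and 0.399 TPM in the controls and at 2.20, 2.14 and 2.19 TPM in the knockdown, 5.49-fold higher. CDCA7 stood at 1.74, 1.67 and 1.82 TPM in the controls and at 25.6, 22.7 and 23.6 TPM in the knockdown. For these genes too the groups were far apart, and the 3 knockdown libraries differed little among themselves.

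The test was limma on log2(TPM + 1), two-sided, with p adjusted by Benjamini-Hochberg over 15721 genes that reached 1 TPM in at least 3 libraries and a threshold of 0.05. The changes were 1.36 (SE 0.10, adjusted p = 1.22e-06) for DNMT1, 1.56 (SE 0.07, adjusted p = 4.17e-08) for UHRF1, 1.19 (SE 0.06, adjusted p = 8e-08) for HELLS and 3.18 (SE 0.07, adjusted p = 9.28e-10) for CDCA7. On this scale the changes of genes near 1 TPM are understated. All 4 rose, as did 53.6% of tested genes while 11.9% fell, and the count alone therefore sets the 4 genes little apart; with libraries rescaled to the median gene, 29.4% rose and 29.9% fell. HELLS reached 1 TPM only in the knockdown libraries and so entered the test through the group where it was high. By size, 0.0763% of tested genes had a larger rise than CDCA7, which ranked 13 from the top, 2.89% a larger rise than UHRF1, 4.76% than DNMT1 and 7.54% than HELLS. The median tested gene rose by 0.35 on the log2 scale, and after rescaling each library to the median gene the rises were 0.98 for DNMT1, 1.25 for UHRF1, 0.98 for HELLS and 2.80 for CDCA7. The lower mitochondrial share of the knockdown libraries was set aside by taking TPM over nuclear protein-coding genes alone, where the rises were 1.38, 1.84, 1.69 and 3.35 in the same order of genes. Those genes held 23.9 to 26.8% of TPM in the controls and 29.4 to 30.9% in the knockdown. Values over them alone are therefore larger, and a pseudocount of 1 holds their changes back less. The sizes of these rises cannot be compared with those as deposited. With the trend on transcript length and GC content removed, HELLS rose by 0.65 and the others by 1.01 to 2.69. Length here was the median over all listed transcripts of a gene. It was 619.5 bases for DNMT1, 840 for DNMT3A, 1994 for CDCA7, 2687 for HELLS and 3230 for UHRF1. The transcripts present in these cells may differ from it in length.

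**Figure D2:**
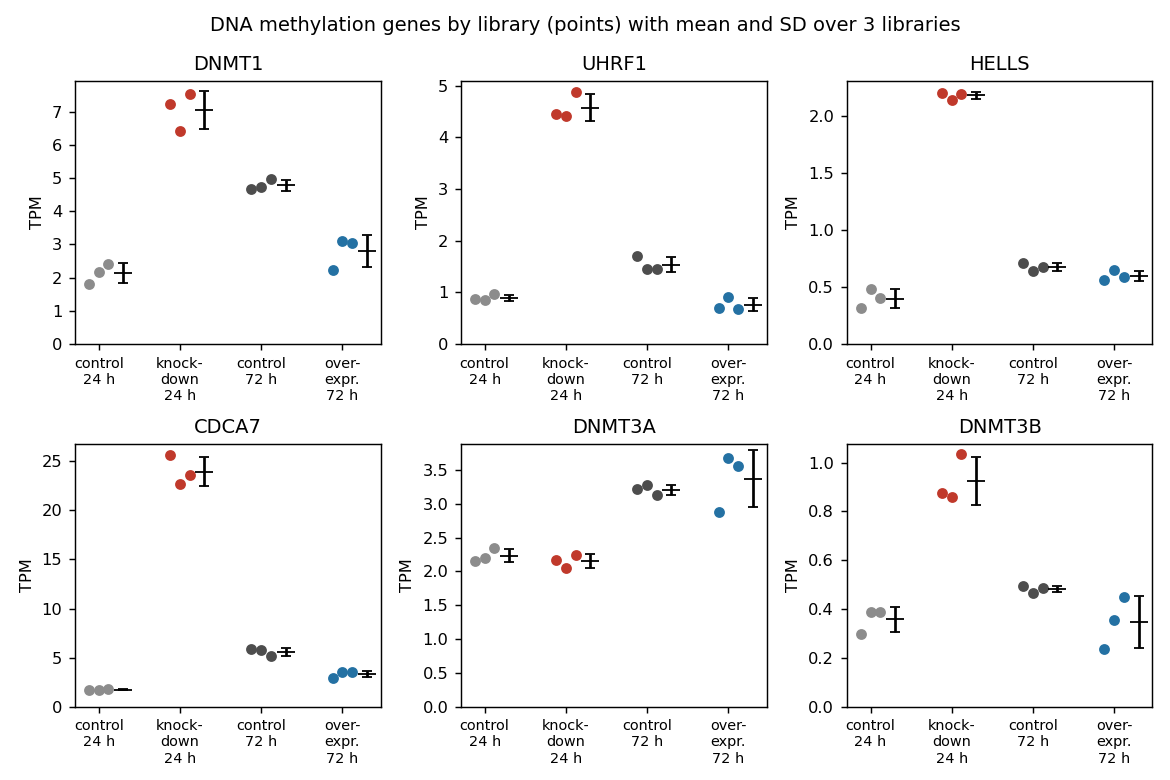
TPM of the 6 genes in each of the 12 libraries (points), with the mean and SD over 3 libraries beside each group. The knockdown libraries stand above all others for DNMT1, UHRF1, HELLS, CDCA7 and DNMT3B, and DNMT3A shows a split by time instead.

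The de novo genes did not share 1 pattern. DNMT3A stood at 2.15, 2.20 and 2.34 TPM in the controls and at 2.17, 2.05 and 2.24 TPM in the knockdown, with overlapping libraries and a change of -0.04 (SE 0.07, adjusted p = 0.68, limma with Benjamini-Hochberg). Relative to the median gene it was lower, by -0.40 with rescaled libraries (adjusted p = 0.000182, limma), and over all settings tried the change lay between -0.40 and -0.01. DNMT3B had the lowest mean of the 6 genes in every group, and in the controls at 24 h its libraries overlapped those of HELLS. It stood at 0.299, 0.387 and 0.389 TPM in the controls and at 0.876, 0.857 and 1.04 TPM in the knockdown, 2.58-fold higher and without overlap. It reached 1 TPM in 1 library only and was not tested with the others. In a fit with no filter on low values, in which 37.0% of genes rose, its change was 0.50 (SE 0.06, adjusted p = 9.38e-05, limma).

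The maintenance and de novo genes were also set against each other within each library, a ratio that does not depend on how a library was scaled beyond the pseudocount of 1. All 8 ratios of a maintenance to a de novo gene were higher in the 3 knockdown libraries than in the 3 controls. The log2 ratio of CDCA7 to DNMT3A went from -0.24 ± 0.03 to 2.98 ± 0.08 (SD, n = 3), a difference of 3.22, the largest of the 8, and that of HELLS to DNMT3B from 0.04 ± 0.05 to 0.73 ± 0.07, the smallest at this pseudocount. At a pseudocount of 0.1 the smallest difference was that of DNMT1 to DNMT3B, at 0.53, and that of HELLS to DNMT3B was 1.05. With 3 against 3 libraries the exact two-sided permutation test gave p = 0.1 for each ratio (0.1 after Benjamini-Hochberg over the 8 pairs), the smallest it allows. DNMT1 made up 45.0 ± 2.28% of the summed TPM of the 3 methyltransferases DNMT1, DNMT3A and DNMT3B in the controls and 69.6 ± 0.775% in the knockdown.

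With AGR2 overexpressed at 72 h, DNMT1, UHRF1 and CDCA7 were lower than in their controls, and HELLS was not detectably so. DNMT1 stood at 4.66, 4.72 and 4.98 TPM in the controls and at 2.24, 3.09 and 3.05 TPM with overexpression, 1.71-fold lower. UHRF1 stood at 1.70, 1.45 and 1.46 TPM and at 0.696, 0.912 and 0.678 TPM, 2.01-fold lower. CDCA7 stood at 5.91, 5.78 and 5.15 TPM and at 2.92, 3.53 and 3.48 TPM, 1.69-fold lower. No library of 1 group reached into the other for these 3 genes, and 29.9% of tested genes were lower without overlap. HELLS stood at 0.707, 0.637 and 0.671 TPM in the controls and at 0.558, 0.644 and 0.591 TPM with overexpression, and overexpression replicate 2 lay inside the control range. In the limma fit the changes were -0.62 (SE 0.10, adjusted p = 0.000537) for DNMT1, -0.53 (SE 0.07, adjusted p = 0.000117) for UHRF1, -0.62 (SE 0.07, adjusted p = 5.29e-05) for CDCA7 and -0.07 (SE 0.06, adjusted p = 0.38) for HELLS. The 3 of 4 that fell stand against 25.5% of tested genes that fell and 29.9% that rose, or 28.6% and 27.8% with rescaled libraries. The median gene moved by 0.03, and rescaling left the changes at -0.64, -0.53, -0.65 and -0.08. With the trend on transcript length and GC content removed, HELLS also passed, at -0.20 (adjusted p = 0.0292, limma), in a fit where 31.8% of genes fell, while its other settings ran from -0.15 to -0.02.

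DNMT3A stood at 3.21, 3.27 and 3.12 TPM in the controls at 72 h and at 2.88, 3.67 and 3.56 TPM with overexpression, so that 1 overexpression library lay below and 2 above the controls. Its change was 0.05 (SE 0.07, adjusted p = 0.558, limma) and 0.14 (adjusted p = 0.041) without overexpression replicate 1, the lowest of the 3, with a range of -0.04 to 0.14 over all settings. DNMT3B stood at 0.495, 0.467 and 0.484 TPM and at 0.236, 0.354 and 0.451 TPM, 1.39-fold lower and without overlap. In the fit with no filter, in which 18.3% of genes fell, its change was -0.14 (adjusted p = 0.0947, limma). Of the 8 ratios, 6 were lower in all 3 overexpression libraries, by 0.39 to 0.67 on the log2 scale, and the 2 that involve HELLS overlapped. The exact two-sided permutation p of the 6 was 0.1, the smallest possible, and 0.1333 after Benjamini-Hochberg over the 8 pairs. In the limma fit 52.2% of tested genes had a lower change than DNMT3A. DNMT1 made up 56.5 ± 1.29% of the summed methyltransferase TPM in the controls and 42.8 ± 0.901% with overexpression.

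**Figure D3:**
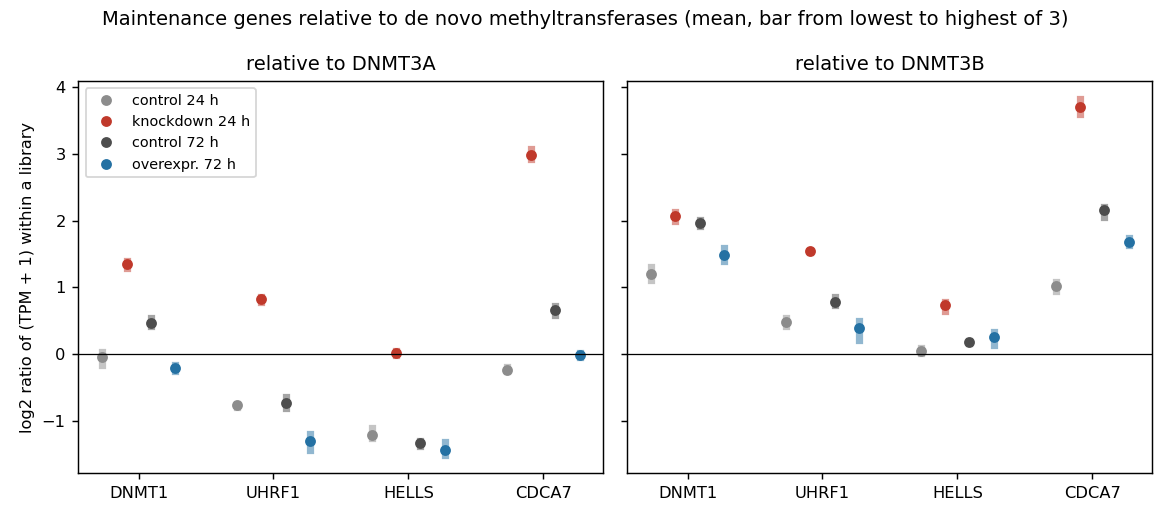
Log2 ratio of (TPM + 1) of each maintenance gene to DNMT3A (left) and to DNMT3B (right) within a library, as the mean of 3 libraries with a bar from the lowest to the highest. The knockdown means are the highest in each column at this pseudocount of 1, from 0.01 for HELLS to 2.98 for CDCA7 on the left. For DNMT1 to DNMT3B the knockdown, at 2.07, overlaps the controls at 72 h, at 1.97. At a pseudocount of 0.1 that order turns, with 2.81 in the knockdown and 3.07 in the controls at 72 h.

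The control libraries themselves differed between 24 h and 72 h of gefitinib. CDCA7 was 3.22-fold, DNMT1 2.24-fold, UHRF1 1.72-fold and HELLS 1.69-fold higher at 72 h, with no overlap between libraries, as for 58.4% of tested genes. In the limma fit the changes were 1.27 (adjusted p = 7.98e-07), 0.89 (adjusted p = 4.22e-05), 0.42 (adjusted p = 0.000479) and 0.26 (adjusted p = 0.00338), and 52.9% of tested genes rose while 8.1% fell. With libraries rescaled to the median gene, where 27.9% rose and 26.3% fell, CDCA7 (0.95) and DNMT1 (0.56) kept most of their rise, UHRF1 stood at 0.19 (adjusted p = 0.03, limma) and HELLS at 0.12 (adjusted p = 0.1). Once the trend on length and GC content was removed, the direction turned for UHRF1, at -0.17 (adjusted p = 0.0268, limma), and for HELLS, at -0.11 (adjusted p = 0.201), in a fit where 28.5% of genes fell. DNMT3A was 1.44-fold higher at 72 h, a change of 0.38 (SE 0.07, adjusted p = 0.000904, limma) that was 0.06 after rescaling (adjusted p = 0.431). DNMT3B was 1.34-fold higher, with a change of 0.13 in the fit with no filter (adjusted p = 0.144, limma), in which 33.5% of genes rose. Of the 8 ratios, 6 were higher at 72 h, that of HELLS to DNMT3A was lower, with a difference of -0.12, and that of UHRF1 to DNMT3A overlapped. Both rest on the pseudocount, since at 0.1 the first difference turned to 0.14 with overlap and the other was 0.21 without overlap. Between these controls 42.9% of tested genes had a higher change than DNMT3A. Time and any other difference between the sets of controls cannot be told apart.

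**Figure D4:**
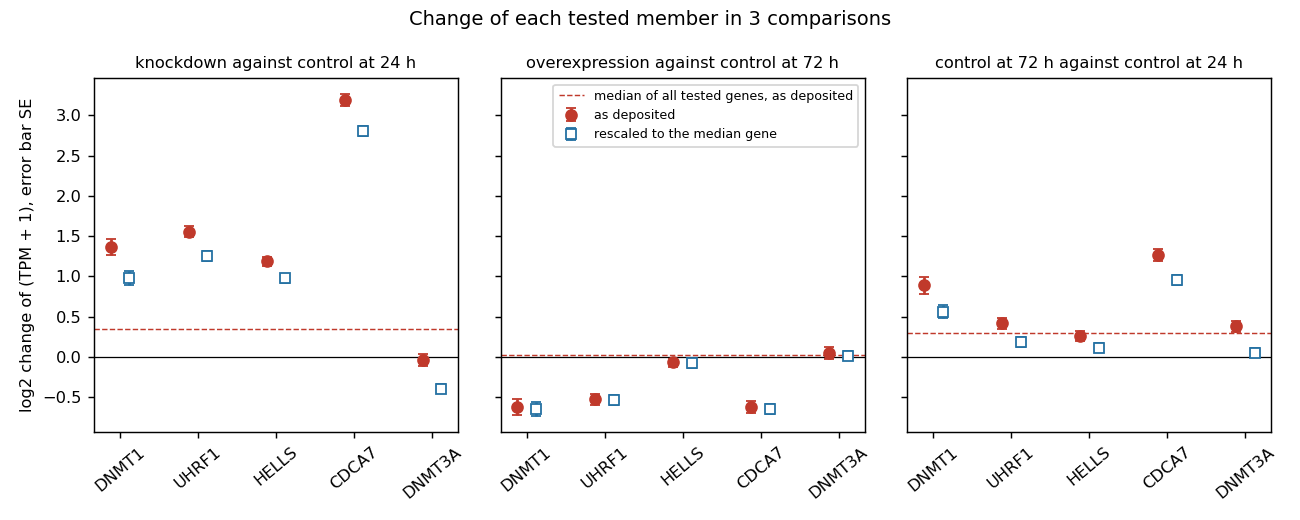
Log2 change of (TPM + 1) with its SE for the 5 tested genes in 3 comparisons, as deposited (red) and with libraries rescaled to the median gene (blue). Dashed red lines give the median change of all 15721 tested genes, which is 0.35 in the knockdown, 0.03 with overexpression and 0.30 between the controls.

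The knockdown and the overexpression were made at different times, each against its own controls, and their effects were compared in the same fit. The overexpression effect minus the knockdown effect was -1.98 (SE 0.15, adjusted p = 9.63e-07, limma with Benjamini-Hochberg) for DNMT1, -2.08 (SE 0.10) for UHRF1, -1.25 (SE 0.08) for HELLS and -3.80 (SE 0.10, adjusted p = 1.64e-09) for CDCA7. All 4 passed, as did 45.6% of tested genes in that direction and 20.1% in the other, or 31.7% and 32.2% with rescaled libraries. HELLS entered this test only through the knockdown libraries, where it was high, and the other 3 all passed. For DNMT3A the difference was 0.09 (adjusted p = 0.463) as deposited and 0.41 (adjusted p = 0.00119) after rescaling. Since knockdown and overexpression also differ in time on gefitinib, the manipulation and the time cannot be told apart in this difference.

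Across the 4 groups CDCA7 kept 1 order with no overlap between neighbours, knockdown above control at 72 h, above overexpression, above control at 24 h. DNMT1 had the same order of means, but overexpression and control at 24 h overlapped. UHRF1 overlapped between control at 24 h and overexpression, HELLS between control at 72 h and overexpression, and DNMT3B between control at 24 h and overexpression. DNMT3A alone of the 6 had its highest mean with overexpression, at 3.37 ± 0.426 TPM, overlapping the control at 72 h. Within a group the order of levels also changed. In the controls at 24 h DNMT3A, DNMT1 and CDCA7 stood at 2.23, 2.13 and 1.74 TPM. DNMT1 overlapped both DNMT3A and CDCA7, which did not overlap each other. In the knockdown CDCA7 led at 23.95 ± 1.502 TPM, DNMT1 followed at 7.06 ± 0.580, UHRF1 at 4.58 ± 0.262, and HELLS and DNMT3A overlapped at 2.18 and 2.15 TPM. In the controls at 72 h the order CDCA7, DNMT1, DNMT3A, UHRF1, HELLS and DNMT3B had no overlap between neighbours. TPM are per transcript length, but which length was used for a gene is not stated in the sources used here. DNMT1 shares its span with S1PR2 on the same strand, which was 5.99 ± 0.569 TPM in the controls at 24 h and 3.08 ± 0.193 in the knockdown, the opposite direction to DNMT1. In the controls at 72 h S1PR2 was 11.5 ± 0.181 TPM, and with overexpression 6.82 ± 0.371. Between the controls and with overexpression it thus moved in the same direction as DNMT1. Any part of reads shared by the 2 genes was not tested.

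The genes that copy DNA moved in the same directions. Of 22 tested genes of DNA replication, 22 rose in the knockdown, beside 53.6% of all tested genes, with a median of 1.90 against 0.35, but CDC45, GINS3 and RFC3 passed the filter on low values only through the knockdown libraries, where they were high. The other 19 all rose, with a median of 1.92. Among them were CDC6, which loads the replicative helicase, from 1.77 to 16.8 TPM and the helicase subunit MCM2 from 4.56 to 34.9 TPM. With overexpression 19 of the 22 fell and 1 rose, beside 25.5% and 29.9% of all tested genes, with a median of -0.50 against 0.03, among them CDC6 from 6.36 to 2.90 TPM and CDT1 from 15.0 to 7.56 TPM. In bulk RNA a larger share of cells in S phase and more of these transcripts per cell cannot be told apart, and the part of cell cycling in the changes of the maintenance genes was not tested. The mean log2(TPM + 1) of these 22 genes in the same library served as a baseline. CDC45, GINS3 and RFC3 are part of it, and no baseline of the other 19 was taken. Set against it, CDCA7 stood at -0.54 ± 0.04 (SD, n = 3) in the controls at 24 h and at 0.75 ± 0.06 in the knockdown, so CDCA7 rose more than the mean of the 22. UHRF1 went from -1.08 ± 0.03 to -1.41 ± 0.06, DNMT1 from -0.36 ± 0.11 to -0.88 ± 0.07 and HELLS from -1.52 ± 0.08 to -2.22 ± 0.03, so on this scale, which holds back genes of low level, these 3 rose less. DNMT3A went from -0.31 ± 0.01 to -2.23 ± 0.02. Between controls and overexpression at 72 h the same quantity moved from -1.36 ± 0.07 to -1.39 ± 0.10 for UHRF1 and from -0.17 ± 0.05 to -0.29 ± 0.20 for DNMT1, less than the SD of the overexpression libraries. For CDCA7 it moved from 0.03 ± 0.08 to -0.10 ± 0.12, about that SD, and for HELLS from -1.96 ± 0.02 to -1.53 ± 0.04.

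The nearest partners of the maintenance genes mostly rose as well. Of 10 listed paralogs and partners, 9 were tested and 8 rose in the knockdown, beside 53.6% of all tested genes. After rescaling 7 rose and DMAP1 fell, beside 29.4% and 29.9%. PCNA, the sliding clamp to which DNMT1 binds at the fork, went from 16.3 ± 0.657 to 70.7 ± 2.32 TPM, LIG1, the ligase that joins lagging-strand fragments and can recruit UHRF1, from 2.10 ± 0.201 to 8.74 ± 0.754, PCLAF, a PCNA-binding factor, from 2.63 ± 0.120 to 8.35 ± 0.231, and CDCA7L, the paralog of CDCA7, from 8.19 ± 0.873 to 18.2 ± 1.14. With overexpression 4 of the 9 fell and 3 rose, beside 25.5% and 29.9% of all tested genes, so the share that rose was near that of all genes. CDCA7L fell from 10.6 to 6.10 TPM and TRIM28, a corepressor of silenced repeats, from 169 to 113 TPM, whereas DMAP1, a DNMT1-associated protein, rose from 19.7 ± 1.11 to 45.4 ± 0.961 TPM, a change of 1.17 (adjusted p = 7.45e-08, limma). DNMT3L, the cofactor of the de novo enzymes, did not exceed 0.0318 TPM in any library. Of 8 genes of replication-coupled chromatin assembly, 8 rose in the knockdown (53.6% of all tested genes), with a median of 1.29, led by the histone chaperone ASF1B (5.35 to 24.7 TPM) and by CHAF1A (0.933 to 4.82 TPM), and with overexpression 4 fell (25.5% of all tested genes) and 1, NASP, rose.

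Tested regulators that bind or hold back E2F rose in the knockdown, and with overexpression more of them fell than rose. Of 12 listed E2F, RB and DREAM genes 9 were tested and 9 rose in the knockdown, beside 53.6% of all tested genes, with a median of 1.40, and 8 rose after rescaling, beside 29.4%. The rise of RBL2 did not pass after rescaling, at 0.27 (adjusted p = 0.117, limma). E2F7 and LIN9 passed the filter on low values only through the knockdown, and the other 7 all rose, with a median of 1.51. E2F1, an activator, went from 3.31 ± 0.221 to 18.4 ± 0.896 TPM, E2F8, a repressor of the same family, from 1.75 ± 0.315 to 12.8 ± 0.552, and MYBL2, of the MuvB complex, from 3.19 ± 0.249 to 14.3 ± 0.925. With overexpression 5 fell, beside 25.5% of all tested genes, 3 did not pass and 1 rose. MYBL2 fell from 7.29 ± 0.0445 to 2.74 ± 0.0980 TPM. RBL2, a pocket protein of the quiescence complex, rose from 4.50 ± 0.200 to 6.87 ± 1.39 TPM, beside 29.9% of all tested genes that rose. E2F1 fell, with a change of -0.32 (adjusted p = 0.000744, limma).

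**Figure D5:**
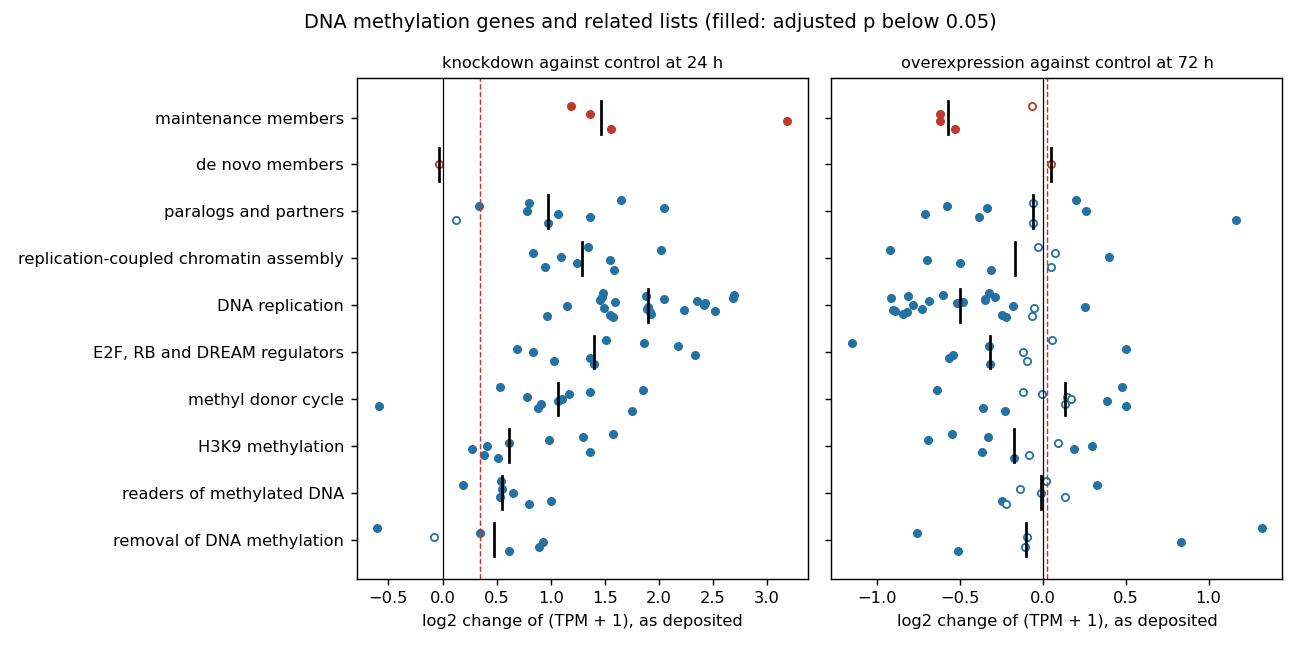
Log2 change of (TPM + 1), as deposited, of every tested gene of each list (points, filled where the adjusted p is below 0.05) with the list median (black bar), in the knockdown and with overexpression; the dashed line is the median of all tested genes. DNA replication genes have medians of 1.90 and -0.50, and lists on removal and reading of methylation lie nearer the median of all genes.

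Genes that remove or read methylation, or that feed it, gave a mixed picture. Their counts stand beside 53.6% of all tested genes that rose and 11.9% that fell in the knockdown, 29.4% and 29.9% after rescaling, and 29.9% and 25.5% with overexpression. No list was tested against these shares, and 4 of 6 or 3 of 7 genes is a count too small to set a list apart from them. Of 8 removal genes 6 were tested; in the knockdown 4 rose and 1 fell, and after rescaling 3 rose and 2 fell. The glycosylase genes MBD4 and TDG went from 10.2 to 20.1 TPM and from 5.88 to 11.7 TPM, and the stress gene GADD45B from 35.6 ± 3.15 to 23.1 ± 1.80 TPM. With overexpression 2 of the 6 rose and 2 fell. MBD4 rose too, from 14.2 ± 0.643 to 26.1 ± 1.17 TPM, and GADD45B rose from 29.4 ± 4.03 to 74.8 ± 6.04 TPM. GADD45A fell from 254 ± 9.54 to 150 ± 7.03 TPM and TET3 from 3.60 ± 0.0795 to 2.27 ± 0.541 TPM. All 7 readers of methylated DNA rose in the knockdown as deposited, but 3 rose and 1 fell after rescaling, with a median of 0.08. Of 11 genes of the methyl donor cycle 10 rose in the knockdown and 9 after rescaling. The folate enzyme MTHFD2 went from 4.65 to 19.3 TPM, and AHCY, which clears the product inhibitor of methyltransferases, from 18.5 to 42.8 TPM. With overexpression 3 of the 11 rose, among them MAT2A, which makes the methyl donor, from 104 to 137 TPM, and 3 fell, among them MTHFD2 from 10.9 to 6.66 TPM. Of 9 genes of H3K9 methylation, the mark that UHRF1 also reads, 9 rose in the knockdown and 6 after rescaling, and SUV39H2, an H3K9 methyltransferase, went from 1.03 to 4.22 TPM. With overexpression 5 fell, among them CBX1 from 21.0 to 12.6 TPM, and 2 rose.

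Germline genes that are known to be kept silent by promoter methylation did not all move the same way. Of the 4 that were tested, 3 rose and 1 fell in the knockdown, beside 53.6% and 11.9% of all tested genes. With overexpression 1 rose and 3 fell, beside 29.9% and 25.5%. Counts out of 4 are too small to set these genes apart from those shares. Of 16 listed, 12 had a row and 4 passed the filter on low values, all cancer-testis genes of the X chromosome; the other 8 did not exceed 0.218 TPM. In the knockdown MAGEC2 went from 2.15 ± 0.0150 to 78.6 ± 2.25 TPM, a change of 4.66 (adjusted p = 1.26e-10, limma). CTAG2 went from 47.3 ± 5.51 to 133 ± 15.5 TPM and MAGEC1 from 39.8 ± 3.88 to 107 ± 5.76 TPM, whereas MAGEA4 went from 3.59 ± 0.414 to 1.86 ± 0.0957 TPM. With overexpression CTAG2 was lower, from 81.3 ± 2.45 to 1.36 ± 0.426 TPM, MAGEC1 went from 55.4 ± 1.88 to 45.5 ± 5.50 TPM and MAGEA4 from 3.27 ± 0.171 to 0.00521 TPM, with MAGEC2 higher, from 6.85 ± 0.738 to 13.8 ± 0.867 TPM. MAGEC2 was thus above its controls in both comparisons and MAGEA4 below its controls in both. CTAG2 and MAGEC1, like DNMT1, UHRF1 and CDCA7, were higher in the knockdown and lower with overexpression.

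The genes most like each maintenance gene over the 12 libraries were found among 10618 protein-coding tested genes by Pearson r of log2(TPM + 1), as a description, since the libraries fall into 4 groups and share their scaling. For CDCA7 they were MCM3, DTL, PSMD11, TCOF1 and FAM111B (r from 0.998 to 0.997). For UHRF1 they were SH3KBP1, ANO1, FANCI, PPP2R2C and EZH2 (0.996 to 0.995), for HELLS ORC6, SORD, LIN9, WDHD1 and IARS2 (0.996 to 0.995), and for DNMT1 NUP188, ABR, SF3B3, CR2 and GEMIN5 (0.998 to 0.994). Among the 6 genes themselves r lay between 0.878 and 0.977 for pairs of maintenance genes and between 0.907 and 0.962 for DNMT3B with each of them. For DNMT3A with the 4 it lay between -0.50 and -0.12, so by r over the 12 libraries DNMT3B followed the maintenance genes and DNMT3A did not. DNMT3B reached 1 TPM in only 1 library. In the fit with no filter its changes with overexpression (adjusted p = 0.0947, limma) and between the controls (adjusted p = 0.144) did not pass.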

How the data were processed

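RNA was isolated with NucleoZOL and sequenced on Illumina libraries, per the labels' protocols, and reads were aligned with STAR 2.7.8a to hg38/GRCh38, per the submitters' processing notes. Neither quantifier nor strandedness nor annotation release is stated in the sources used here. TPM for 30225 genes in 12 libraries, each summing to 1000000, were deposited by the authors in 1 table, so depth is unknown. Groups were taken from the sample titles. The genes, the lists and the tests were chosen with earlier results of these data known.

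The 15721 genes that reached 1 TPM in 3 libraries or more were fitted as log2(TPM + 1) with limma 3.58.1 in R 4.3.3, with 4 group means over 12 libraries and an intensity trend. Tests were two-sided and p was adjusted by Benjamini-Hochberg over all tested genes, with a threshold of 0.05. Of the 6 genes 5 were tested. Ratios within a library were compared by exact permutation. Lists are described by counts and medians, with no set test. In each list at most the 4 genes of largest change past the threshold were to be named per comparison. E2F1 and EPCAM with overexpression, RBL2 in the knockdown, DNMT3L and S1PR2 were named after their values were seen. So were the genes that passed the filter only through the knockdown. The procedure was tested on simulated data. Alternatives were other pseudocounts (0.1 and 5), filters and scalings, a replicate block, the compared groups alone, and leaving out each library. Added after seeing the data were removal of the trend on transcript length and GC content, for which 25380 gene IDs (84.0%) matched GENCODE 29, and leaving out control replicate 1 at 24 h with overexpression replicate 1. Promoter windows came from RefSeq. Python 3.11.15 with pandas 2.3.3, numpy 2.4.6 and matplotlib 3.10.9 was used. Some genes that the rule selects are not reported here.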

Additional observations from a re-analysis of the deposited data

How the results depend on the processing

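Requiring 5 TPM in 3 libraries left fewer genes to test and lowered the number called from 10308 to 6186 in the knockdown, from 8703 to 5097 with overexpression, from 9594 to 5839 between the controls and from 10326 to 6126 for the difference of the effects. The change of DNMT3A with overexpression turned to -0.040 under quantile normalisation and to -0.021 with the trend on length and GC content removed; with that trend removed the control changes of UHRF1 and HELLS turned to -0.17 and -0.11. The causes were not tested. Of the other alternatives for single genes, 421 kept direction and side of the threshold, 7 no longer passed and 11 newly passed. The rises of the 4 maintenance genes in the knockdown, and the falls of DNMT1, UHRF1 and CDCA7 with overexpression, passed under every alternative run for them. Except in the fit with no filter, HELLS entered only through the knockdown libraries, where it was high. Pseudocounts of 0.1 and 5 moved HELLS in the knockdown between 2.21 and 0.41 and UHRF1 between 2.23 and 0.70. Leaving out each library in turn gave 9518 to 10913, 7652 to 8951, 8684 to 10193 and 9786 to 10630 called genes. Of the ratios, 5 and 6 did not overlap with overexpression at pseudocounts of 0.1 and 5, and between the controls all 7 that did not overlap were higher at 0.1. With the replicate number as a block, 10380, 8815, 9657 and 10396 genes were called; same-numbered libraries had correlations of -0.16 to 0.06, not every library correlated best with its own number, and the numbers are not taken to pair them. Genes near or under 1 TPM, here HELLS, UHRF1 and DNMT3B, are limited by an unknown depth.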
